A study of Mus musculus with 172 samples.

Results

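Sugar is brought into cells, broken down and stored by a small set of proteins, and 33 genes of that set were followed here through sleep deprivation in mouse cerebral cortex and liver. They were chosen by name and by step of the pathway, with earlier results of these data known. They comprise 3 glucose transporters, 8 enzymes from hexokinase to aldolase, 3 PFKFB enzymes and 7 enzymes of lower glycolysis. The others are 4 enzymes that set the fate of pyruvate, 3 glycogen phosphorylases and 5 proteins of glycogen synthesis. Of the 33, 29 were listed among the 14896 genes of the cortex tables and 31 among the 14107 genes of the liver tables, with 28 listed in both. Slc2a2, Pklr and Gys2 were listed in liver alone, Eno2 in cortex alone, and Eno1 in neither.

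Glucose enters a cell through facilitative transporters of the SLC2A family, is trapped by hexokinases, and is committed to glycolysis by phosphofructokinase. The strongest activator of phosphofructokinase is fructose-2,6-bisphosphate, which the bifunctional PFKFB enzymes make and remove, so these enzymes help set glycolytic flux in both brain and liver. Glycogen is the store: in brain it lies mainly in astrocytes, and in liver it supplies blood glucose between meals, with phosphorylases breaking it down, synthases and the branching enzyme building it, and regulatory subunits of protein phosphatase 1 bringing the phosphatase to it.

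The mice were males of 11 to 14 weeks from 33 BXD/RwwJ lines, inbred strains derived from crosses of C57BL/6J (B6) with DBA/2J (D2), together with 4 pools of the parental strains (B6-1, B6-2, D2-1 and D2-2) and both reciprocal F1 crosses (BD-F1 and DB-F1). In each of these 39 lines or pools, the SD mice were kept awake by gentle handling for 6 h from light onset and the control (Ctr) mice were left undisturbed in another room, and both were killed at ZT6, 6 h after light onset. Each RNA library was a pool, usually of 3 mice of one line (fewer for BXD79, BXD85 and BXD101), so there were 39 Ctr and 39 SD libraries per tissue, 1 of each per line, and a p-value speaks of the spread between such pools and not between single mice. Of 43 pools in the series, 4 of the older BXD/TyJ lines (BXD05, BXD29, BXD29t and BXD32) were kept apart and serve below as a separate set of 4 lines. Their age and the number of mice per pool are not given. How BXD29 and BXD29t, which share a line number, are related is not given either.

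Expression is given as log2 CPM, the log2 of a gene's reads scaled to the size of the library. Summed over the listed genes, cortex libraries held between 18995492 and 28998853 counted reads and liver libraries between 4681101 and 8269401. Cortex values thus rest on more counted reads. Library size and library reads here and below mean this sum, not all reads sequenced. The highest value of any gene was 1.78 reads per exonic base in liver, against 43.5 in cortex. In liver, the reads of abundant genes did not keep pace with library size: across all liver genes with more than 0.5 reads per exonic base, the slope of log2 reads on log2 library reads had a median of 0.37, against 1.89 for genes at or under 0.03 reads per base, while the cortex medians lay between 0.947 and 0.988. Judged by their agreement with the other libraries of their group, 3 libraries stood apart, liver SD of BXD70 and cortex Ctr of BXD56 and BXD90. All 5 neuronal markers were listed in cortex, with 1 of 5 hepatocyte markers and no Kupffer cell or B cell marker. All 5 hepatocyte markers were listed in liver, with 2 of 5 neuronal, all 5 astrocyte and all 4 microglia markers. Being listed thus does not by itself separate the tissues. In such whole-tissue RNA, fewer cells of a type and less RNA per cell cannot be told apart. The cortex and liver tables were normalised separately, so their levels are set side by side below without a test.

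After SD in cortex, the PFKFB enzyme Pfkfb3, the glycogen-targeting subunit Ppp1r3c and the glucose transporter Slc2a1 rose, and Pfkfb1 and the glycogen phosphorylase Pygl fell. These were the members with the largest changes there. In the comparison of 39 SD with 39 Ctr pools (limma, with a member called where its p, adjusted by Benjamini-Hochberg across the whole table of that tissue, was under 0.05), 20 of the 29 listed members were called, which is 69.0%, beside 68.4% of all cortex genes. Of these, 7 rose and 13 fell, against 33% higher and 35.4% lower among all genes, so the share of members called was near that of cortex genes at large. The median size of the members' change was 0.106 on the log2 scale, against 0.125 over all genes, and 3 of 29 members were called with a change of at least 0.5, beside 7.18% of all cortex genes.

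In liver Pfkfb3 and Pfkfb1 had the largest changes and rose, Ppp1r3c, Hk2, Aldoc and Pfkm followed in size and fell, and Pfkfb2 rose. There 14 of 31 listed members were called, 45.2% beside 44.2% of all liver genes, and 6 of them rose (21.5% of all genes) and 8 fell (22.6% of all genes). The median size of change was 0.08 for the members and 0.117 for all genes, and 2 of 31 members, Pfkfb3 and Pfkfb1, were called with a change of at least 0.5, beside 7.29% of all liver genes.

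**Figure D1:**
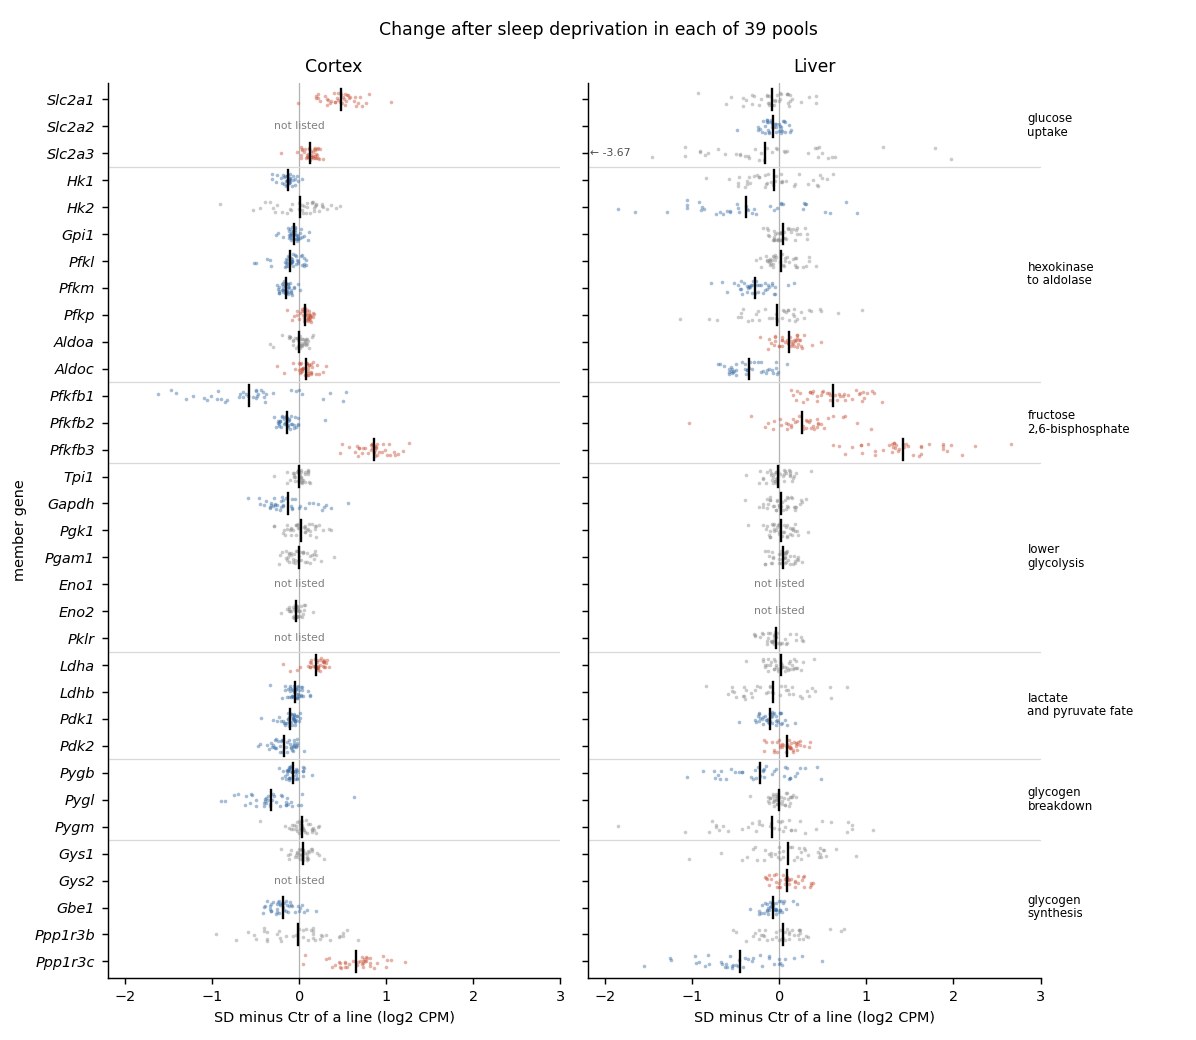
SD minus Ctr change in log2 CPM of every listed member, by step of the pathway, in cortex (left) and liver (right). Each point is 1 of 39 lines or pools and the black bar is their mean; red members rose, blue fell and grey did not pass the test. Pfkfb3 lies above 0 in all 39 pools of both tissues, and 1 liver pool of Slc2a3 lies beyond the axis at -3.67.

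The bases just before the transcription starts of Slc2a1, Pfkfb3 and Ppp1r3c are shown because these were the called members that were higher after SD in at least 38 of the 39 cortex pools. They are the 250 bases before each RefSeq start in GRCm38.p6, 5′ to 3′ on the gene's strand, with every match on either strand in capitals to the E-box CACGTG, bound by CLOCK and BMAL1 among others, to the hypoxia response element cores ACGTG and GCGTG, and to the cAMP response element TGACGTCA. Any CACGTG also holds ACGTG on each strand. Pfkfb3 has 2 RefSeq starts here.
Slc2a1, chr4:119108495-119108744, plus strand: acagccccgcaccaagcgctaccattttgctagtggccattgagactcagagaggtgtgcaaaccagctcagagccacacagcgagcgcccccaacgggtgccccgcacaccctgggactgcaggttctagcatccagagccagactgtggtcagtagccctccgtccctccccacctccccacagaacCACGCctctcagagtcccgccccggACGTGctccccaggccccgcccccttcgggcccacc
Pfkfb3, chr2:11502091-11502340, minus strand: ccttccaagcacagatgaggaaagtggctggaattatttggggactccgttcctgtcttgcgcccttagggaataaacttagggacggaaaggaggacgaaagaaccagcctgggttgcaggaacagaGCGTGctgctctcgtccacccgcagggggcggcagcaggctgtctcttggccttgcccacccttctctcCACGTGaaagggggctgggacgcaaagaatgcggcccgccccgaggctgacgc
Pfkfb3, chr2:11553930-11554179, minus strand: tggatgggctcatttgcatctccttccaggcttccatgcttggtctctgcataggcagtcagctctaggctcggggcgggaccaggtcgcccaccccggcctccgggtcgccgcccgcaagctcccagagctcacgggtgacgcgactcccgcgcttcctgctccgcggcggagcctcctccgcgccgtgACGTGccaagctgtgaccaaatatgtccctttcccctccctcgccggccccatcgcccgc
Ppp1r3c, chr19:36736605-36736854, minus strand: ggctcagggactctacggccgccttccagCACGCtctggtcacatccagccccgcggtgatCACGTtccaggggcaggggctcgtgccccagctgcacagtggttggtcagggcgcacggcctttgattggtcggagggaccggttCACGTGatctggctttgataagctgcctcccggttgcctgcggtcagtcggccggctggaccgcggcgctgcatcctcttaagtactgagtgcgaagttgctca
The window of Ppp1r3c and the first of Pfkfb3 each held 1 CACGTG, and all 4 windows held at least 1 ACGTG. Over the 49 windows found for 30 of the members, 12.2% held CACGTG, 36.7% ACGTG, 49.0% GCGTG and 2.04% TGACGTCA, the last in Ldha only. Of all 32817 mouse windows of this length the shares were 6.02%, 16.6%, 28.1% and 1.55%. Such a match is a run of letters and not a measured binding site.

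Of the 3 member transporters, Slc2a1 and Slc2a3 were listed in cortex and rose, and none rose in liver. Other sugar transporters of the same family went the other way in cortex: Slc2a4 fell by 0.38 (adjusted p = 1.76e-05), Slc2a8 by 0.35 (adjusted p = 7.08e-25) and Slc2a9 by 1.07. Slc2a5 differed by -0.13 (adjusted p = 0.588). Slc2a4 and Slc2a9 were barely detected, with Ctr means of 0.112 and 0.129 log2 CPM, against 4.856 for Slc2a8. Slc2a1 encodes GLUT1, the transporter of the blood-brain barrier and of astrocytes. Its cortex level ran from 6.38 to 6.77 log2 CPM in the Ctr pools with a median of 6.54, and from 6.57 to 7.48 after SD with a median of 7.05. Of the SD pools, 33 were above the highest Ctr pool. Slc2a1 rose by 0.47 (SE 0.0377), 1.39-fold (limma, adjusted p = 1.58e-19), in 38 of 39 pools, from a change of -0.01 in BXD89 to 1.06 in BXD95. It was also higher in all 4 BXD/TyJ lines, by 0.46 to 0.84. Slc2a3, the neuronal transporter GLUT3, rose by 0.12 (adjusted p = 3.8e-09) in 37 of 39 pools. The ratio of Slc2a1 to Slc2a3, 1.35 per kilobase of exon in Ctr, was 0.352 higher after SD on the log2 scale, and higher in 36 of 39 pools. Here and below, a change in such a ratio is the mean over the pools, a Ctr ratio per kilobase is the median over the Ctr pools, and neither was tested. Among the 4 endothelial markers listed in cortex, 2 rose and 2 fell, and their summed level was 7.06 to 7.77 in Ctr and 7.03 to 7.53 in SD pools. Of 5 astrocyte markers, 1 rose and none fell, with summed levels of 12.04 to 12.73 and 12.24 to 12.79. The part of either cell type in these results was not tested.

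In liver, Slc2a1 differed by -0.09 (adjusted p = 0.148) and Slc2a3, with a mean of 7.91 reads per library and none in the SD pool of BXD64, by -0.16 (adjusted p = 0.429), and neither passed the test. Slc2a2, the hepatocyte transporter GLUT2 and by far the most abundant of the 3 in liver at 115 CPM per kilobase of exon in Ctr, fell by 0.07 (adjusted p = 0.0147) and was higher in 12 of 39 pools. That call was lost in the 33 BXD/RwwJ lines alone (adjusted p = 0.0695) and when the libraries were centred on their medians (adjusted p = 0.0822).

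**Figure D2:**
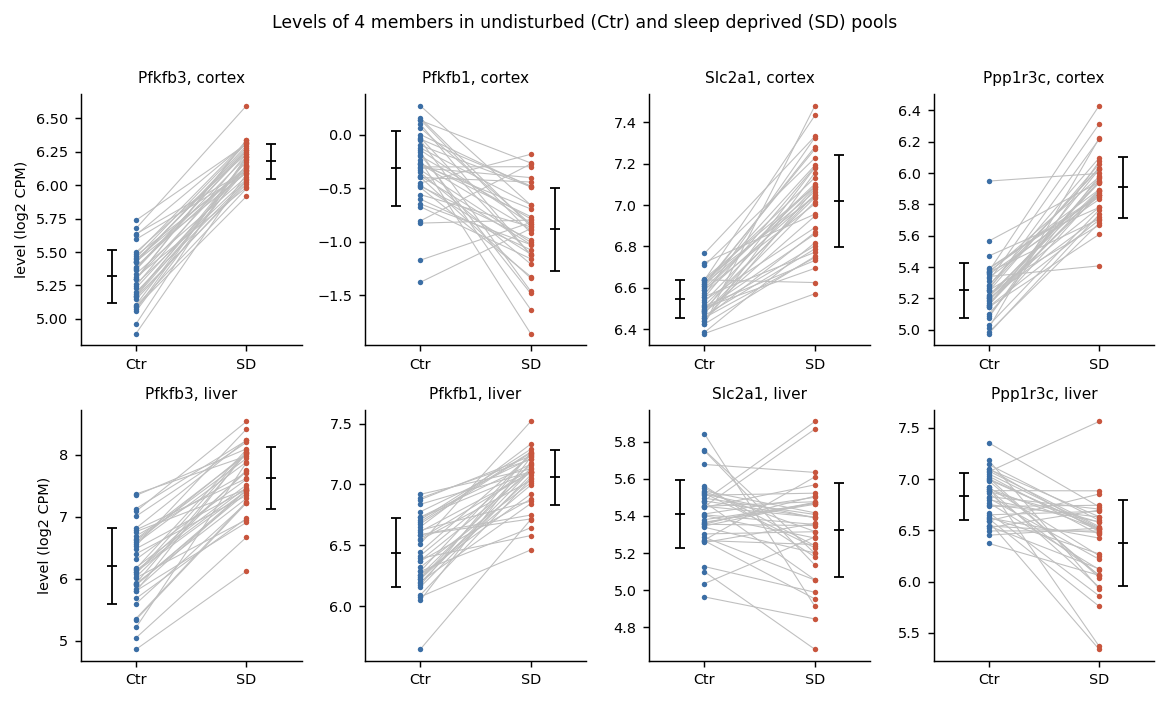
Levels (log2 CPM) of Pfkfb3, Pfkfb1, Slc2a1 and Ppp1r3c in Ctr and SD pools of cortex and liver. Each thin line joins the Ctr and SD library of 1 of 39 lines or pools, and the marker with bars is the mean ± SD; Pfkfb1 and Ppp1r3c slope in opposite directions in the 2 tissues.

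From hexokinase to aldolase, changes in cortex were small and went both ways: 4 of 8 members fell, 2 rose and 2 did not pass the test, beside 35.4% lower and 33% higher among all cortex genes. Pfkm, Pfkl and Pfkp are the subunits that build phosphofructokinase. Cortex Pfkm ran from 8.71 to 8.99 in Ctr (median 8.88) and from 8.60 to 8.88 in SD pools (median 8.73). The groups overlapped, with 16 SD pools below the lowest Ctr pool. Pfkm fell by 0.15 (SE 0.0145, 0.902-fold, adjusted p = 2.23e-15) and was higher after SD in 1 of 39 pools, and lower in all 4 BXD/TyJ lines. Pfkl fell by 0.11 (adjusted p = 0.000105) while Pfkp rose by 0.07 (adjusted p = 1.03e-05). The log2 ratio of Pfkp to Pfkm was higher after SD in 39 of 39 pools, by 0.217 (SD 0.066), from a Ctr ratio of 0.218 per kilobase. Hk1, the main brain hexokinase at 55.3 CPM per kilobase, fell by 0.13 (adjusted p = 2.63e-13), and Gpi1, the isomerase of the next step, by 0.06 (adjusted p = 0.0345, and 0.0664 in the 33 BXD/RwwJ lines alone). Aldoc, the aldolase of brain, rose by 0.07 (adjusted p = 0.00265), whereas Aldoa at -0.01 (adjusted p = 0.791) and the insulin-responsive hexokinase Hk2 at 0.01 (adjusted p = 0.877) did not pass the test.

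The same step in liver had 3 decreases, 1 increase and 4 members that did not pass the test, beside 22.6% lower and 21.5% higher among all liver genes. Liver Pfkm ran from 6.08 to 6.58 in Ctr (median 6.35) and from 5.70 to 6.42 in SD pools (median 6.05), and 23 SD pools lay below every Ctr pool. It fell by 0.28 (SE 0.0336, 0.822-fold, adjusted p = 2.52e-11) and was higher in 2 of 39 pools. Pfkl, the liver subunit, differed by 0.03 (adjusted p = 0.59), and the log2 ratio of Pfkl to Pfkm was 0.308 higher after SD, and higher in 38 of 39 pools. Aldoc ranged from 5.62 to 6.68 in Ctr (median 6.23) and from 5.25 to 6.46 in SD pools (median 5.91), with wide overlap and 5 SD pools below every Ctr pool. It fell by 0.35 (SE 0.0507, 0.786-fold, adjusted p = 1.48e-08) and was higher in 1 of 39 pools, and lower in all 4 BXD/TyJ lines. Aldoa moved the other way. Its range was 7.10 to 7.68 in Ctr (median 7.25) and 7.04 to 7.83 in SD pools (median 7.39), and it rose by 0.11 (SE 0.0341, adjusted p = 0.0059), in 30 of 39 pools. All 39 pools had a higher log2 ratio of Aldoa to Aldoc after SD, by 0.458 on average.

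Liver Hk2 was sparse, with a mean of 24.3 reads per library, and variable. It ran from 1.12 to 3.27 in Ctr (median 1.92) and from 0.22 to 3.21 in SD pools (median 1.68). The groups overlapped over most of their range, although 10 SD pools fell below every Ctr pool. Hk2 fell by 0.38 (SE 0.136, 0.767-fold, adjusted p = 0.0161), with changes from -1.85 in BXD45 to 0.89 in B6-1 and 11 of 39 pools higher. Of the 4 BXD/TyJ lines 1 was higher, by 1.19. Hk1 (-0.06, adjusted p = 0.58), Pfkp (-0.03, adjusted p = 0.796) and Gpi1 (0.04, adjusted p = 0.35) did not pass the test.

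Of all members, Pfkfb3 had the largest change in both tissues. It encodes the form whose kinase activity far outweighs its phosphatase activity, and its level favours glycolysis. In cortex its range was 4.89 to 5.74 in Ctr pools (median 5.31) and 5.92 to 6.59 in SD pools (median 6.17). No SD pool overlapped any Ctr pool. Pfkfb3 rose by 0.86 (SE 0.0373), 1.81-fold (adjusted p = 7.62e-35), from 0.47 in BXD87 to 1.25 in BXD44, and was number 285 of the 14896 cortex genes by size of change. In liver it ran from 4.86 to 7.37 in Ctr (median 6.13) and from 6.12 to 8.54 in SD pools (median 7.62). Of the SD pools 29 exceeded every Ctr pool, and the others overlapped the Ctr range. Its increase was 1.42 (SE 0.124), 2.68-fold (adjusted p = 8.74e-17), in all 39 pools, from 0.61 in BXD50 to 2.66 in BXD95, and number 49 of 14107 liver genes by size. The 4 BXD/TyJ lines gave increases of 0.80 to 1.08 in cortex and of 1.52 to 2.35 in liver.

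Pfkfb1, the form of liver and muscle that in liver is switched to its phosphatase activity by phosphorylation, went in opposite directions in the 2 tissues. In liver it ran from 5.65 to 6.92 in Ctr (median 6.42) and from 6.46 to 7.52 in SD pools (median 7.10), with 30 SD pools above every Ctr pool. It rose by 0.62 (SE 0.0566), 1.53-fold (adjusted p = 9.07e-16), in 39 of 39 pools. In cortex it was barely detected, with a mean of 14.9 reads per library, and ran from -1.38 to 0.27 in Ctr (median -0.28) and from -1.86 to -0.18 in SD pools (median -0.86). Most SD pools lay within the Ctr range, and 4 lay below it. It fell by 0.57 (SE 0.0854), 0.673-fold (adjusted p = 9.76e-09), and was higher in 6 of 39 pools. The BXD/TyJ lines were less uniform, with 3 of 4 higher in liver and 1 of 4 higher in cortex.

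Pfkfb2, the heart form, also split between the tissues. Cortex Pfkfb2 ran from 6.17 to 6.67 in Ctr (median 6.54) and from 6.27 to 6.54 in SD pools (median 6.39), entirely within the Ctr range. The lowest Ctr pool was that of BXD90, and 19 of 39 Ctr pools lay within the SD range. Pfkfb2 fell by 0.14 (SE 0.0168, 0.91-fold, adjusted p = 2.31e-11) and was higher in 1 of 39 pools, BXD90, whose Ctr library stood apart. Liver Pfkfb2 ran from 5.88 to 6.68 in Ctr (median 6.31) and from 5.15 to 7.16 in SD pools (median 6.64), with 16 SD pools above every Ctr pool and 1 below. It rose by 0.26 (SE 0.0657, 1.2-fold, adjusted p = 0.000598), in 33 of 39 pools, with the lowest change of -1.03 in BXD70, whose SD library stood apart. The ratio of Pfkfb3 to each of the others was higher after SD in all 39 pools of both tissues. In cortex the log2 ratio of Pfkfb3 to Pfkfb2 was 0.994 higher, from 0.62 per kilobase in Ctr, and in liver 1.159 higher, from 1.3. That of Pfkfb3 to Pfkfb1 was 1.429 higher in cortex, from 27.9, and 0.803 higher in liver, from 0.444.

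Lower glycolysis was read from triose phosphate isomerase to enolase in cortex. In liver it was read from triose phosphate isomerase to Pgam1 and at pyruvate kinase, as no enolase member was listed there. Of its listed members, 1 of 5 was called in cortex and 0 of 5 in liver, beside 68.4% and 44.2% of all genes. Genes of these steps outside the member list did fall in cortex: the muscle enolase Eno3 by 0.66 (adjusted p = 2.78e-10), the muscle mutase Pgam2 by 0.56 (adjusted p = 4.1e-06), the mutase Bpgm by 0.05 (adjusted p = 0.00778) and the pyruvate kinase Pkm by 0.04 (adjusted p = 0.0028). The member called in cortex was Gapdh, which fell by 0.13 (adjusted p = 0.00773). Most of the sequence of Gapdh, Pgk1 and Pgam1 recurs elsewhere in the genome, with 72.84%, 79.95% and 86.78% of their 100-base transcript stretches found in near-identical copies, and Gapdh drew on average only 89.1 reads per cortex library, so the values of these 3 genes are uncertain. The others were abundant in cortex: Tpi1 was at 168 and the neuronal enolase Eno2 at 209 CPM per kilobase. Tpi1 differed by -0.0008 (adjusted p = 0.967), Pgk1 by 0.03 (adjusted p = 0.395) and Pgam1 by -0.0003 (adjusted p = 0.992). Eno2 differed by -0.03 (adjusted p = 0.09) and was higher in 9 of 39 pools, and a replicate block for the line gave an adjusted p of 0.00415. In liver, Pklr, the pyruvate kinase of hepatocytes at 103 CPM per kilobase, differed by -0.04 (adjusted p = 0.348), and the remaining members by -0.01 to 0.04. Liver Tpi1, at -0.01 (adjusted p = 0.849), had an adjusted p of 0.0447 once library size was added to the comparison.

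At the fate of pyruvate, cortex showed 1 increase and 3 decreases among 4 members, beside 33% higher and 35.4% lower among all cortex genes. Ldha, the lactate dehydrogenase subunit that favours lactate formation, ran from 7.22 to 7.89 in Ctr (median 7.45) and from 7.49 to 7.79 in SD pools (median 7.66), inside the Ctr range. The highest Ctr pool was that of BXD56, whose Ctr library stood apart, and only 11 of 39 Ctr pools lay within the SD range. Ldha rose by 0.19 (SE 0.0251, 1.14-fold, adjusted p = 3.16e-10), in 36 of 39 pools. Ldhb, the subunit that favours lactate use, fell by 0.05 (adjusted p = 0.00356), and the log2 ratio of Ldha to Ldhb was 0.239 higher after SD, and higher in 36 of 39 pools, from 0.331 per kilobase in Ctr. Pdk1 and Pdk2 phosphorylate and so inhibit pyruvate dehydrogenase, the gate to the citric acid cycle. Cortex Pdk2 ran from 6.56 to 6.98 in Ctr (median 6.76) and from 6.26 to 6.76 in SD pools (median 6.59), with 12 SD pools below every Ctr pool. It fell by 0.18 (SE 0.0242, 0.886-fold, adjusted p = 9.47e-10) and was higher in 1 of 39 pools, while Pdk1 fell by 0.11 (adjusted p = 1.74e-08).

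In liver Pdk1 fell and Pdk2 rose. Pdk1 ran from 7.66 to 8.30 in Ctr (median 7.995) and from 7.70 to 8.12 in SD pools (median 7.94), all within the Ctr range. It fell by 0.11 (SE 0.0306, 0.929-fold, adjusted p = 0.00276) and was higher in 8 of 39 pools. Pdk2 rose by 0.09 (adjusted p = 0.00273), in 30 of 39, and the Pdk1 to Pdk2 ratio was higher after SD in only 3 of 39 pools. Ldha (0.02, adjusted p = 0.611), at 82.5 CPM per kilobase, and Ldhb (-0.08, adjusted p = 0.448) did not pass the test in liver.

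Among the 3 glycogen phosphorylases, 2 fell in cortex and 1 in liver, beside 35.4% and 22.6% lower among all genes. Pygl, the liver form, was sparse in cortex, with a mean of 68.6 reads per library, and ran from 1.05 to 2.29 in Ctr (median 1.76) and from 0.56 to 1.93 in SD pools (median 1.47). The groups overlapped, with 6 SD pools below every Ctr pool. It fell by 0.33 (SE 0.0699), 0.796-fold (adjusted p = 2.35e-05). Only 3 of 39 pools were higher, of which BXD56, whose Ctr library stood apart, had the highest change at 0.63, and all 4 BXD/TyJ lines were lower. Pygb, the brain form, fell by 0.08 (adjusted p = 3.4e-06), and Pygm, the muscle form, differed by 0.03 (adjusted p = 0.588).

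In liver it was Pygb, a minor form there, that fell. It ran from 3.91 to 5.05 in Ctr (median 4.45) and from 3.62 to 4.91 in SD pools (median 4.23), largely overlapping. The decrease was 0.22 (SE 0.0708, 0.856-fold, adjusted p = 0.00644), with 12 of 39 pools higher and all 4 BXD/TyJ lines lower. Pygl, the phosphorylase that carries liver glycogen breakdown, at 119 CPM per kilobase, differed by -0.0017 (adjusted p = 0.968) with 16 of 39 pools higher.

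Glycogen synthesis was led in both tissues by Ppp1r3c, the PTG subunit that brings protein phosphatase 1 to glycogen and so favours synthase activity. In cortex it ran from 4.98 to 5.95 in Ctr (median 5.22) and from 5.41 to 6.43 in SD pools (median 5.89). Of the SD pools, 14 were above every Ctr pool, and only 3 of 39 Ctr pools lay within the SD range. The highest Ctr pool was that of BXD56, whose Ctr library stood apart. Ppp1r3c rose by 0.66 (SE 0.0412), 1.58-fold (adjusted p = 3.88e-25), in 39 of 39 pools, with the smallest change of 0.05 in BXD56 and the largest of 1.21 in BXD75, and in all 4 BXD/TyJ lines. Liver Ppp1r3c ran from 6.37 to 7.35 in Ctr (median 6.86) and from 5.34 to 7.56 in SD pools (median 6.49). There 15 SD pools were below every Ctr pool and 1 was above. It fell by 0.45 (SE 0.0747), 0.731-fold (adjusted p = 3.79e-07), with 6 of 39 pools higher and changes from -1.56 in BXD67 to 0.49 in BXD95. The 4 BXD/TyJ lines were divided, 2 higher and 2 lower.

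Gbe1, the branching enzyme, fell in cortex. Its range was 3.30 to 3.84 in Ctr (median 3.61) and 3.12 to 3.80 in SD pools (median 3.39), with 8 SD pools below every Ctr pool. The change was -0.18 (SE 0.033, 0.881-fold, adjusted p = 1.14e-06), with 5 of 39 pools higher. Its liver decrease of 0.07 (adjusted p = 0.0312) was lost in the 33 BXD/RwwJ lines alone (adjusted p = 0.0828) and under median centring (adjusted p = 0.094). Gys1, the synthase of brain and muscle, differed by 0.04 in cortex (adjusted p = 0.175, or 0.0355 with the line as a replicate block) and by 0.10 in liver (adjusted p = 0.253). Gys2, the liver synthase, rose by 0.09 (adjusted p = 0.0067) in 28 of 39 pools. Ppp1r3b, the hepatic targeting subunit, passed the test in neither tissue, at -0.02 in cortex (adjusted p = 0.855) and 0.05 in liver (adjusted p = 0.492). The Ppp1r3b to Ppp1r3c ratio was higher after SD in 35 of 39 liver pools and in 2 of 39 cortex pools.

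Whether SD changed a member differently in the 2 tissues was tested on the difference of the 2 changes within each line, liver minus cortex (limma over the 12695 genes listed in both). Of 28 members, 17 passed, 60.7% beside 57.6% of all genes, with 10 larger and 7 smaller in liver. The widest difference was that of Pfkfb1, at 1.19 (SE 0.0971, adjusted p = 4.47e-14), higher in liver in 37 of 39 lines. Ppp1r3c followed at -1.11 (SE 0.0827, adjusted p = 2.73e-15), and its change was lower in liver in all 39. Pfkfb3, which rose in both, rose more in liver by 0.56 (SE 0.0678, adjusted p = 1.72e-09), in 35 of 39. Slc2a1 differed by -0.56 (SE 0.0385, adjusted p = 1.76e-16) and Aldoc by -0.42 (SE 0.0362, adjusted p = 1.87e-13), each lower in liver in 38 of 39. Among members called in both tissues, Pfkfb1, Pfkfb2, Ppp1r3c, Aldoc and Pdk2 had opposite signs.

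**Figure D3:**
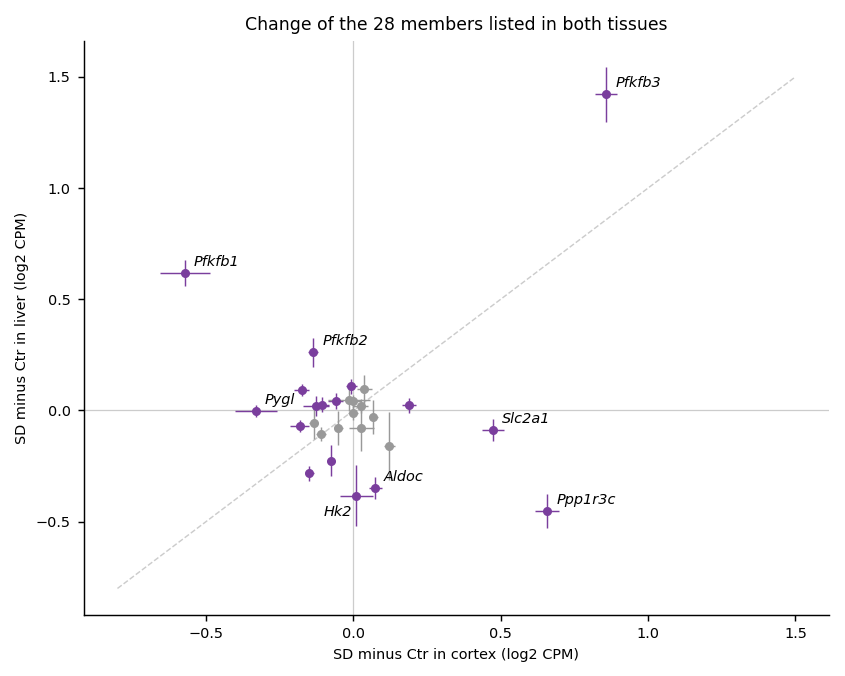
SD minus Ctr log2 change in cortex (horizontal) against liver (vertical) for the 28 members listed in both, with SE bars and the dashed line of equality. Purple members passed the test of the tissue difference; Ppp1r3c lies at 0.66 in cortex and -0.45 in liver, and Pfkfb1 at -0.57 and 0.62.

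Other genes of the pathway were also read from a list of 59. In cortex 51 were listed, of which 11 rose and 23 fell, beside 33% and 35.4% of all genes. Slc2a9, a urate and sugar transporter barely detected at a Ctr mean of 0.129 log2 CPM, fell by 1.07 (SE 0.1, adjusted p = 4.27e-16), with 2 of 39 pools higher. In liver 52 were listed, of which 7 rose and 14 fell, beside 21.5% and 22.6% of all genes. Ppp1r3g, another glycogen-targeting subunit, sparse at a Ctr mean of 1.041 log2 CPM, rose by 0.98 (SE 0.306, adjusted p = 0.00622), in 29 of 39 pools. Pdk4, the kinase of the fasted state, fell by 0.95 (SE 0.12, adjusted p = 2.08e-10) with 2 of 39 pools higher. Hkdc1, a hexokinase barely detected at a Ctr mean of 0.192 log2 CPM, fell by 0.56 (SE 0.215, adjusted p = 0.0282), although 17 of 39 pools were higher. None of the 5 hepatocyte markers passed the test in liver (summed level 10.14 to 10.9 in Ctr and 10.12 to 10.89 in SD pools), and all 4 B cell markers fell there (2.69 to 4.72 and 1.2 to 3.66). The part of those cells in the liver results was not tested.

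The 4 BXD/TyJ lines, which took no part in the comparisons above, moved in the called direction in all 4 lines for 13 of the 20 members called in cortex (65.0%, beside 64% of all called cortex genes) and for 8 of 14 in liver (57.1%, beside 61.2%). Pfkfb3 and Pfkm (cortex), and Pfkfb3, Pfkfb2, Aldoc and Pygb (liver), were among these. Cortex Ldha and Pdk2 and liver Hk2 were not.

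Lines also differed in the level of many members, whatever the sleep condition. Over the 33 BXD/RwwJ lines, with the Ctr and SD pool of a line as its 2 values, the line test passed for 18 of 29 members in cortex (62.1%, beside 50.4% of all genes) and for 25 of 31 in liver (80.6%, beside 59%). Adding library size to the test left 19 of 31 in liver, with Pdk2, Pfkfb2, Pgam1, Pgk1, Ppp1r3c and Tpi1 no longer called. The share of all liver genes called with library size in the test is not given here. The 19 of 31 therefore cannot be set beside the 59%, and whether the members exceed liver genes at large once library size is included is not known. In cortex the largest F among the members was 9.96 for Pygm (adjusted p = 1.13e-09), whose line means ran from 4.79 in BXD48 to 5.54 in BXD103, 1.68-fold, with an SD between lines of 0.197 against 0.128 for the difference of the 2 pools of a line. Gpi1 came next with an F of 8.40 (adjusted p = 1.38e-08), yet spanned only 1.36-fold, from 7.78 in BXD56 to 8.22 in BXD90. Both of these lines had cortex Ctr libraries that stood apart, and without them Gpi1 spanned 1.26-fold (F = 8.59, adjusted p = 1.09e-08). Pygl had the widest spread, 2.31-fold from 0.84 in BXD87 to 2.04 in BXD81 (F = 4.11, adjusted p = 1.1e-04). Hk2 spanned 2.15-fold, from 1.53 in BXD65 to 2.64 in BXD103 (F = 2.49, adjusted p = 0.00989), and Pfkfb3 1.57-fold, from 5.49 in BXD90 to 6.14 in BXD55 (F = 3.05, adjusted p = 0.00194), or 1.55-fold without BXD56 and BXD90.

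The SD between lines was larger in liver than in cortex for 24 of the 28 members listed in both, with medians of 0.186 and 0.0925. The exceptions included Pygl, which spanned 1.39-fold in liver. The share over all genes listed in both tissues was not computed, so this count is not a trait of the members. In liver Hk2 line means ran from 0.67 in BXD100 to 3.24 in BXD97, 5.91-fold (F = 3.67, adjusted p = 4.14e-04), with an SD of 0.558 between lines and of 0.583 for the difference between the 2 pools of a line. Pfkfb3 ran from 5.49 in BXD70 to 7.72 in BXD81, 4.69-fold (F = 6.09, adjusted p = 2.02e-06). The liver SD library of BXD70 stood apart, and without that line Pfkfb3 spanned 3.63-fold, from 5.86 in BXD61 (F = 4.86, adjusted p = 2.46e-05), beside its 2.68-fold rise with SD. Hk1 spanned 2.15-fold (F = 2.80, adjusted p = 0.00396) and Ldhb 2.29-fold (F = 2.23, adjusted p = 0.0195), both near the pool-to-pool spread. Gapdh (F = 8.24), Gpi1 (F = 7.05) and Pygl (F = 6.22) had the largest F values. Their line means correlated with log2 library reads at -0.621, -0.552 and -0.842, though each stayed called with library size in the test. Gapdh values are uncertain because of its near-identical copies.

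The parental pools, 2 per strain, show some members on the founding backgrounds. These were chosen after their values were seen, and the strains were not tested against each other. Liver Pfkfb3 was at 5.91 and 6.40 in the Ctr pools of B6 and at 6.81 and 7.09 in those of D2. After SD it was at 7.38 and 7.34 in B6 and at 8.23 and 8.54 in D2, above both B6 pools. Liver Ppp1r3c went from 6.98 and 7.01 to 6.06 and 6.04 in B6, while in D2 it went from 6.59 and 6.83 to 6.85 and 6.71. Liver Pfkfb2 went from 6.11 and 6.26 to 7.16 and 7.02 in B6, and from 6.25 and 6.27 to 6.48 and 6.57 in D2. For these members the B6 and D2 values after SD did not overlap. With 2 pools per strain this is not particular to them. Liver Tpi1 was also apart after SD, at 7.41 and 7.43 in B6 and 7.82 and 7.80 in D2. Liver Hk1 overlapped, at 3.87 and 3.19 in B6 and 3.81 and 3.42 in D2. The share of members or of all genes that separate in this way was not computed.

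**Figure D4:**
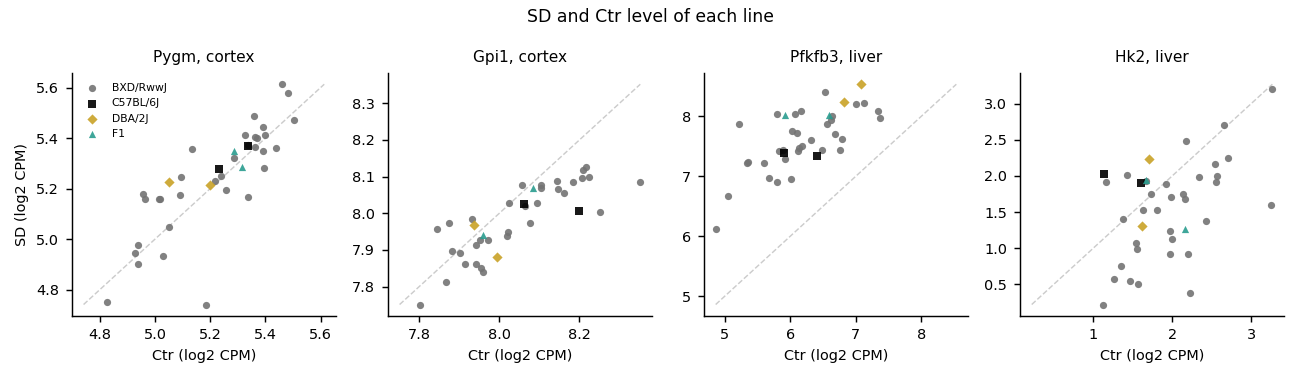
Ctr level (horizontal) against SD level (vertical), both in log2 CPM, of each line or pool for cortex Pygm and Gpi1 and liver Pfkfb3 and Hk2, with the parental and F1 pools marked. Points of cortex Pygm and Gpi1 run close to a diagonal, those of liver Pfkfb3 lie above the dashed line of equality in all 39, and those of liver Hk2 scatter on both sides of it.

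How liver reads followed library size bears on which liver members can be read closely. Of the 31 liver members, 6 had more than 0.5 reads per exonic base (Slc2a2, Tpi1, Pklr, Ldha, Pygl and Gys2), with slopes of log2 reads on log2 library reads between 0.227 and 0.816, where reads in proportion to depth would give 1. At the other end, 7 members at or under 0.03 reads per base (Slc2a3, Hk1, Hk2, Pfkp, Pygb, Pygm and Gys1) had slopes of 1.63 to 2.67. Of the 4 members with the largest liver changes, Pfkfb3 had a slope of 1.31, Pfkfb1 of 0.611, Ppp1r3c of 0.764 and Hk2 of 2.67, the highest of all members. Pfkfb2, at 2.37, was also among the steepest. In cortex the slopes of all 29 members were between 0.78 and 1.31. The liver SD library of BXD70, the smallest at 4681101 reads, gave the highest change of any pool for 9 of 31 members, and DB-F1, whose liver Ctr library was the smallest of its group at 5034166 reads, gave the lowest change for 9 of 31. In cortex BXD56 gave the lowest change for 8 of 29 members and BXD90 for 7, both with Ctr libraries that stood apart. Without the lines whose libraries stood apart, 7 members were higher and 13 lower in cortex, and 6 higher and 8 lower in liver.

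**Figure D5:**
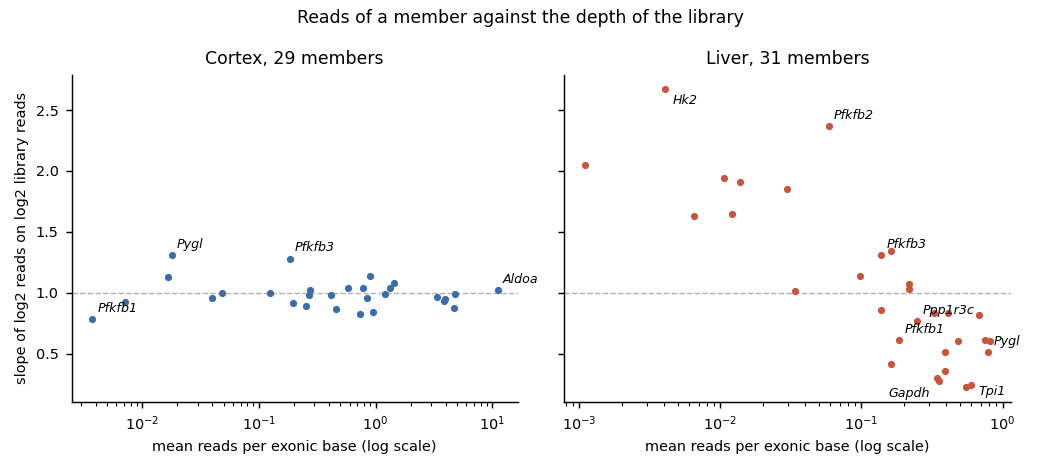
Slope of log2 reads on log2 library reads of each member (vertical) against its mean reads per exonic base (horizontal, log axis), in cortex and liver. Cortex members lie near a slope of 1 at every level, and liver members lie between 1.63 and 2.67 at or under 0.03 reads per base and between 0.227 and 0.816 above 0.5.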

How the data were processed

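Stranded mRNA libraries of cortex and liver were sequenced as single-end reads. The authors aligned them with STAR to mm9, counted reads per RefSeq gene with HTSeq, left out genes with low counts, scaled libraries by TMM in edgeR and deposited log2 CPM, 1 table per tissue and condition (versions are not given in the sources used here). Values were used as deposited. Because each was a whole number of reads above a constant, library sizes and reads per gene were recovered, with every value within 0.02 of a whole read.

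The members and all lists were chosen with earlier results of these data known. SD and Ctr pools were compared with limma 3.58.1 (trended variance, R 4.3.3) on log2 CPM of 39 against 39 libraries, without a line term and without a fold minimum, with Benjamini-Hochberg adjustment over all genes listed in the tissue and a threshold of 0.05. The tissue difference was tested on the paired changes of each line, and lines were compared by a moderated F over the 33 BXD/RwwJ lines with condition as a term. Ctr and SD libraries of a line came from the same inbred line, and their deviations from the group means were correlated (lowest 0.299 in cortex and 0.169 in liver, medians 0.614 and 0.475, against -0.0197 and -0.018 between different lines). The line was therefore also fitted as a replicate block. Lines with a library more than 5 median absolute deviations below its group's median correlation were left out in turn as an alternative. Other alternatives were voom on the recovered reads, a prior count of 5, a mean log2 CPM of at least 0, median centring, other sets of pools and, chosen after seeing the data, library size as a covariate. The test scripts were tested on simulated data.

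Full values are given for the 10 called members with the largest change in each tissue, the 5 with the largest tested difference between tissues and the 4 with the largest SD between lines among those called, and for the 3 other pathway genes with the largest called change in each tissue, some of which are not reported here. Slc2a4, Slc2a5, Slc2a8, Eno3, Pgam2, Bpgm and Pkm, Gpi1, Gapdh and Pygl in the line comparison, the ratios between members and the parental levels shown were chosen after their values were seen. Near-identical copies were found with minimap2 2.31-r1302, by placing each 100-base stretch of a transcript on the genome. Levels per kilobase use exonic length. Promoter sequences came from RefSeq (GRCm38.p6), and those of Slc2a3, Gys2 and Ppp1r3b were not used here. Tables and plots were made with pandas 2.3.3 and matplotlib 3.10.9 in Python 3.11.15.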

Additional observations from a re-analysis of the deposited data

Results flagged for a closer look

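The change with SD differed between liver and cortex in 17 of the 28 members listed in both (limma on the difference within each line). Liver minus cortex, the log2 difference was 1.19 for Pfkfb1, 0.56 for Pfkfb3, 0.40 for Pfkfb2, 0.33 for Pygl, 0.27 for Pdk2, 0.15 for Gapdh, 0.13 for Pfkl, 0.12 for Aldoa, 0.11 for Gbe1 and 0.10 for Gpi1. It was -1.11 for Ppp1r3c, -0.56 for Slc2a1, -0.42 for Aldoc, -0.39 for Hk2, -0.17 for Ldha, -0.15 for Pygb and -0.13 for Pfkm. The difference of Pygb did not pass the test without the lines whose libraries stood apart (-0.13, adjusted p = 0.0686) or when the libraries were compared without pairing (adjusted p = 0.0802).

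Among the 4 BXD/TyJ lines, 1 line lay far from the other three in 3 of 60 member and tissue combinations, where chance gives about 1 in 20. Cortex Pgk1 changed by -0.341 in BXD05, against 0.035, 0.073 and 0.077 in the others. Liver Aldoa changed by 0.356 in BXD32, against 0.017, 0.047 and 0.048. Liver Pfkfb2 changed by 0.899 in BXD05, against 0.24, 0.245 and 0.275.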

How the results depend on the processing

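Every count of members higher, lower or different between lines or tissues was within 1.5 times its reported value in the 76 alternatives run for the counts. Members higher ranged from 7 to 8 in cortex and stood at 6 in liver, and members lower from 12 to 14 and from 6 to 9. Between lines, 13 to 21 cortex members and 19 to 25 liver members differed, the lowest liver count with library size as a covariate. With the line as a replicate block, 8 members rose and 14 fell in cortex, as Eno2 (adjusted p = 0.00415) and Gys1 (0.0355) passed the test, and no other call changed. Of 1139 values of single members, 1093 had the same sign and the same side of the threshold as reported, 26 lost the call, 5 gained it and 15 changed sign, none of them called either way; the cause was not tested. In cortex these were Aldoa at 0.0104, Tpi1 at 0.01 and Pgam1 at 0.0078 without the lines whose libraries stood apart; Tpi1 at 0.0001 and Pgam1 at 0.0059 with parental pools averaged; Tpi1 at 0.0 and Pgam1 at 0.0021 with library size as a covariate; Pgam1 at 0.0007 by voom and 0.0073 in the 33 BXD/RwwJ lines; and Ppp1r3b at 0.0041 with all 43 pools. In liver they were Tpi1 at 0.0038 and Pygl at 0.0022 in the 33 BXD/RwwJ lines, and Pygl at 0.0042 after median centring, 0.0002 with all 43 pools and 0.0013 without BXD79, BXD85 and BXD101. Liver libraries held fewer counted reads than cortex libraries. Members under 0.03 reads per exonic base there, Hk2 and Slc2a3 among them, are among the least certain. The 6 liver members above 0.5 reads per base, Tpi1, Ldha, Pklr and Pygl among them, had slopes of 0.227 to 0.816 on library size. Their small changes are therefore uncertain too.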
